A study of Mus musculus with 40 samples.

Results

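The genes described here encode the subunits of the NMDA receptor, the glutamate-gated channel that memantine blocks. They were chosen by symbol, as every RefSeq transcript of the deposited table that maps to Grin1, Grin2a, Grin2b, Grin2c, Grin2d or Grin3a. That mapping uses no measured value, but the genes were listed with earlier results of these data known. The table held 7 such transcripts of 6831, and they came from 5 of the 6 listed genes. Grin1 had 3 transcripts, and Grin2a, Grin2b, Grin2c and Grin3a had 1 each. Grin2d had no row and was not analysed here.

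RNA was sequenced from the cortex of male mice aged 12 weeks, of strain C57BL/6 in the labels and C57Bl/6J in the study's methods. There were 40 libraries in 4 groups of 10 by the labels and the table, and these were used, although the design text of the series gives 4 samples per group. Saline sham mice received saline and the sham procedure, and memantine sham mice received memantine and the sham procedure. Saline HF-HI mice received saline and high-frequency head impact (HF-HI), and memantine HF-HI mice received memantine and HF-HI. Saline or memantine was injected intraperitoneally each day, 1 h before the impact or sham procedure, and RNA was taken 24 h after injury. Every group thus shared the daily injection. Per the study's methods, sham mice also had the same handling and isoflurane anaesthesia as impacted mice, so no group was free of anaesthetic. All values are from cortical homogenate, in which fewer cells of a type and less RNA per cell cannot be told apart.

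The NMDA receptor is an assembly of 4 subunits around a calcium-permeable pore. GluN1, the product of Grin1, is obligatory and binds the co-agonist glycine or D-serine. GluN2 subunits, from the Grin2 genes, bind glutamate and set how fast the channel closes and how strongly magnesium blocks it, and GluN2B gives way in part to GluN2A as the forebrain matures. GluN3A, from Grin3a, also binds glycine and lowers the calcium permeability of receptors that contain it. Memantine enters the open pore and holds the channel blocked, so it acts on the protein, and whether the RNA of its target differed between the groups is the question these libraries address.

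Grin1 is the one gene of the family with several counted transcripts. It lies on the minus strand of chromosome 2, from 25291177 to 25319187 in build GRCm38 (mm10). RefSeq lists 8 protein-coding transcripts for it, and 3 of these had rows. All 7 transcripts of the family matched a GENCODE M21 model of the same build, which gave the exons. The 3 Grin1 transcripts differ in coding exons that are known by their own names. N1 is a cassette in the extracellular amino-terminal domain, known to alter the response to protons and polyamines. C1 and the alternative ends C2 and C2′ form the intracellular tail, and C1 carries a signal that keeps the protein in the endoplasmic reticulum unless it is masked.

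NM_008169 holds C1 and C2 and lacks N1, NM_001177656 holds N1 and C2′ and lacks C1, and NM_001177657 holds C2′ and lacks both N1 and C1. The segments are shown because they are the coding sequence in which the 3 transcripts differ. None of them singles out NM_001177657, which shares the junction without N1 with NM_008169 and the C2′ end with NM_001177656. Capitals mark the segment, and the lower-case letters are the 15 bases that adjoin it in the spliced transcript, before the segment and, for N1 and C1, after it. They are GENCODE M21 reference sequence, written 5′ to 3′ on the transcript strand.
N1 of NM_001177656, chr2:25311343-25311405, 63 bases: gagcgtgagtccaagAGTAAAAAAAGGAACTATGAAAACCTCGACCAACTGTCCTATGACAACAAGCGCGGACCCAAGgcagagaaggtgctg
The same junction without N1 in NM_001177657: gagcgtgagtccaaggcagagaaggtgctg
C1 of NM_008169, chr2:25294438-25294548, 111 bases: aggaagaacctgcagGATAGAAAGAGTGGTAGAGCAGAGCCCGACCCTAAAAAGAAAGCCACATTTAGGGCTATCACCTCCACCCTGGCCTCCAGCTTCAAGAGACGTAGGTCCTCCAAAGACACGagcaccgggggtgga
C2 coding segment of NM_008169, chr2:25292371-25292484, 114 bases: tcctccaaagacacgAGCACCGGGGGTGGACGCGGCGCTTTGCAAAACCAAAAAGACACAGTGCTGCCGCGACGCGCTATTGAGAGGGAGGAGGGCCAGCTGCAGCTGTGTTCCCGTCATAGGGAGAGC
C2′ coding segment of NM_001177656, chr2:25292063-25292128, 66 bases: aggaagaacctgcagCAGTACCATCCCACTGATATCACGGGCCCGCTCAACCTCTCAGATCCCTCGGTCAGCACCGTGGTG
Each segment is a whole number of codons. N1 adds 21 codons and C1 adds 37, and C2 ends the protein with 38 codons where C2′ ends it with 22.

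**Figure D1:**
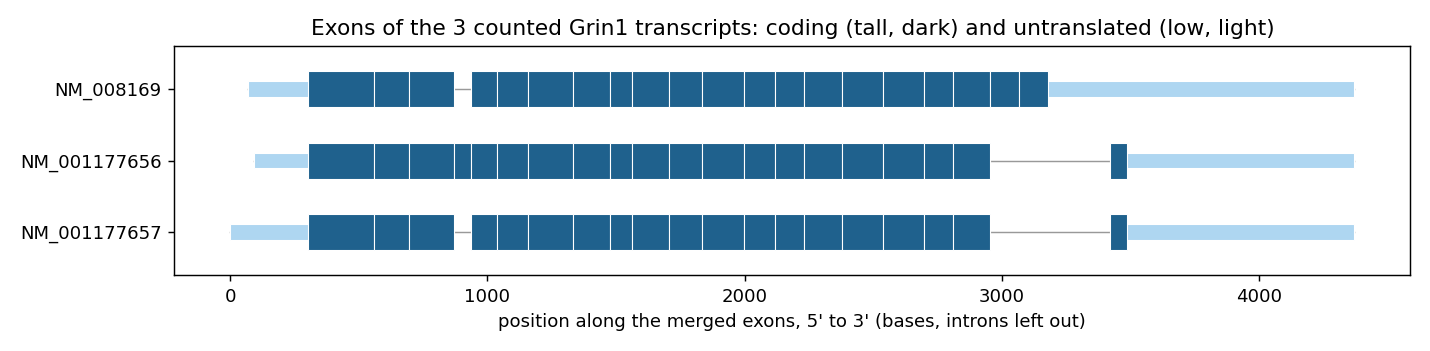
Exons of the 3 counted Grin1 transcripts along their merged exons, in bases from the 5′ end with introns left out. Tall dark boxes are coding and low light boxes untranslated. NM_001177656 alone holds the small N1 exon, and NM_008169 alone holds the C1 exon and the start of the last exon.

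Most of the length of these transcripts is shared. Of the 100-base windows of NM_008169, 13.6% (563 of 4139) occurred in neither of the other counted Grin1 transcripts. The same share was 4.23% for NM_001177656 (157 of 3710) and 1.79% for NM_001177657 (67 of 3739). All 67 windows of NM_001177657 lay within its first 166 bases, in the 301 untranslated bases before its coding sequence. A single window can thus tell NM_001177657 from both others only there, and the counts of the 3 transcripts are shares of common reads that the authors' counting assigned. The sum of the 3 transcripts does not depend on that assignment among them, and it is used below as the Grin1 level, although reads given to Grin1 transcripts without a row are not in it. An antisense RNA, Grin1os, overlaps Grin1, and the sources used here do not say whether the counting used strand.

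The other genes lie on the minus strand as well. Grin2a is at chromosome 16, 9567901 to 9996083, Grin2b at chromosome 6, 135713221 to 136173615, Grin2c at chromosome 11, 115249169 to 115267297, and Grin3a at chromosome 4, 49661611 to 49846023, all in GRCm38. Each had a single counted transcript: NM_008170 for Grin2a, NM_008171 for Grin2b, NM_010350 for Grin2c and NM_001033351 for Grin3a.

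The libraries held 13322404 to 17529644 counted reads in the table. No pair of libraries shared its deposited value in more than 6 of the 6831 transcripts, so no library was a copy of another. All 8 listed pan-neuronal genes and 11 of 14 cortical excitatory neuron genes were in the table, and none of the 6 cerebellar granule cell genes had a row. The summed count of 9 striatal genes, which cortical dissections can carry, ran from 29492 to 47907 in saline sham, 32104 to 47504 in memantine sham, 29857 to 41400 in saline HF-HI and 26981 to 43624 in memantine HF-HI. The sum of 4 thalamic genes ran from 4417 to 13312 over all 40 libraries and overlapped between the groups.

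In saline sham cortex, the family gave 23094 ± 1121 normalised read counts per library (SD, n = 10). Normalised counts are reads divided by the size factor of the library. Of this sum, Grin2b supplied 45.5%, Grin1 25.1%, Grin2a 22.8%, Grin3a 3.61% and Grin2c 2.93%. Grin2b and Grin2a encode the main GluN2 subunits of forebrain neurons, and Grin2c is best known from cerebellar granule cells and astrocytes.

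Counts grow with transcript length, so genes were ordered per kilobase. Per kilobase of coding sequence, saline sham levels were 2366 ± 165 for Grin2b, 2101 ± 124 for Grin1, 1201 ± 92.5 for Grin2a, 247.5 ± 52.6 for Grin3a and 182.0 ± 15.4 for Grin2c (SD, n = 10 each). Grin2b was above Grin1 in 36 of 40 libraries on this scale, Grin1 was above Grin2a in 40 of 40, Grin2a was above Grin3a in 40 of 40, and Grin3a was above Grin2c in 34 of 40. Per kilobase of whole transcript the order of the first pair turned, with Grin1 above Grin2b in 32 of 40 libraries, and so did that of the last pair, with Grin2c above Grin3a in 38 of 40. The GENCODE model of Grin2a holds almost no untranslated sequence (4392 coding bases of 4395), which limits that second scale. The first scale is limited as well, because counts are of whole transcripts and the untranslated part differs between genes. Coding bases were 4446 of 7484 in Grin2b and 3345 of 7431 in Grin3a, which raises both on that scale. The order of Grin1 and Grin2b and that of Grin3a and Grin2c thus depended on the length used, whereas Grin2a held the third place on both scales.

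None of the 5 gene sums passed an unadjusted limma p under 0.05 in any of the 7 contrasts. Among all 5874 gene sums, 10.7% passed for HF-HI against sham under saline, 4.38% for HF-HI against sham under memantine, 3.66% for memantine against saline after HF-HI, 7.92% for memantine against saline after sham and 3.59% for the impact by drug interaction. With both arms pooled, 10.9% passed for HF-HI against sham and 8.85% for memantine against saline. With 5 genes, shares of this size correspond to fewer than 1 call per contrast, so a count of 0 is near the background. The Benjamini-Hochberg adjusted p of the members was 0.594 or higher in every contrast, over all gene sums tested. In each of the 4 comparisons of 2 groups, the ranges of all 5 genes overlapped, and none of them passed 0.05 in a two-sided permutation test either.

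**Figure D2:**
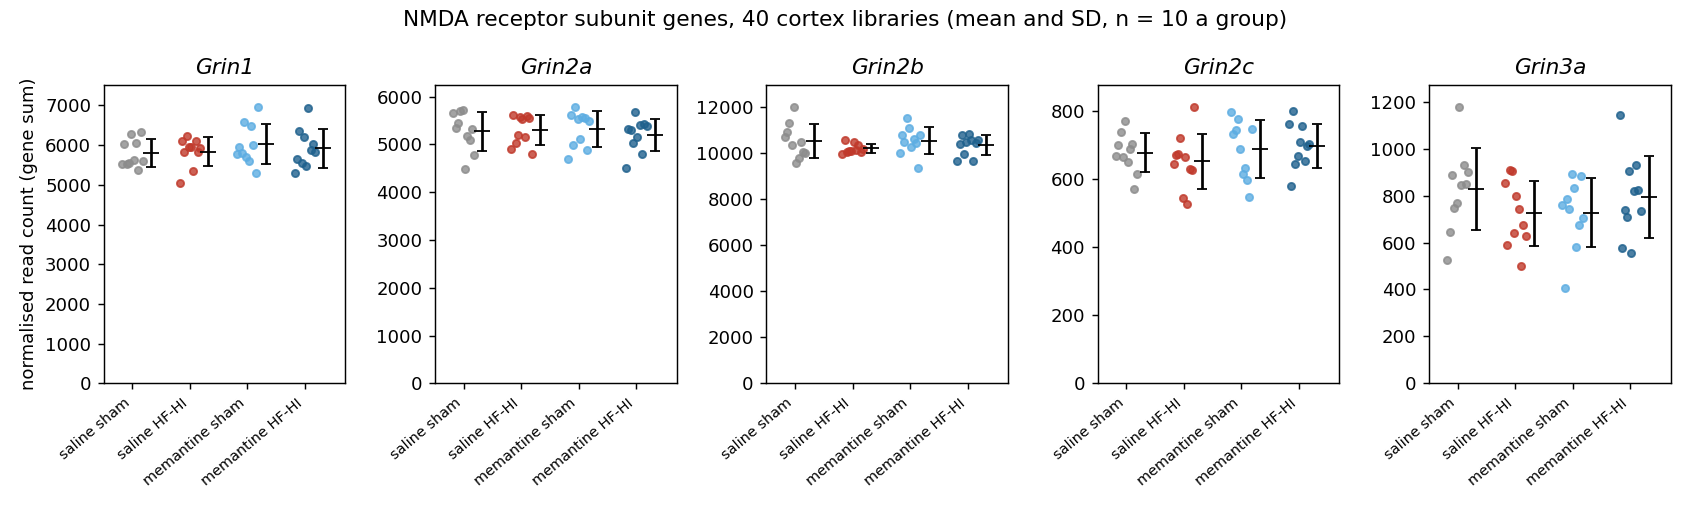
Normalised read counts of the 5 subunit genes by group. Each point is a library, and the bar beside the points gives the mean and SD of 10 libraries. Within each gene the 4 groups overlap, and Grin3a shows the widest spread relative to its mean.

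Grin1 encodes the obligatory subunit. Its sum ran from 5384 to 6334 in saline sham (median 5619), from 5308 to 6959 in memantine sham (median 5886), from 5057 to 6231 in saline HF-HI (median 5939) and from 5303 to 6927 in memantine HF-HI (median 5849). The highest memantine libraries were above every saline library, but the lower ends of the groups lay together. Under saline, the log2 change with HF-HI was 0.0098 ± 0.046 (SE; limma p = 0.831), with a 95% confidence interval of -5.56% to 7.34% for the change in level. Under memantine it was -0.024 ± 0.046 (limma p = 0.596). Memantine against saline gave 0.053 ± 0.046 after sham (limma p = 0.253) and 0.019 ± 0.046 after HF-HI (limma p = 0.684).

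Grin2a encodes GluN2A, the subunit of faster-closing synaptic receptors. Its count ran from 4487 to 5729 in saline sham (median 5332), from 4702 to 5784 in memantine sham (median 5514), from 4809 to 5612 in saline HF-HI (median 5370) and from 4517 to 5686 in memantine HF-HI (median 5316). The groups covered nearly one common range. The log2 change with HF-HI was 0.0081 ± 0.044 under saline (limma p = 0.855) and -0.033 ± 0.044 under memantine (limma p = 0.458). The interval of the change under saline was -5.46% to 6.97%.

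Grin2b encodes GluN2B, known for slower closing and for binding CaMKII. Its count ran from 9583 to 12001 in saline sham (median 10416), from 9365 to 11513 in memantine sham (median 10566), from 9960 to 10578 in saline HF-HI (median 10122) and from 9671 to 10838 in memantine HF-HI (median 10453). The saline HF-HI libraries were the most alike, with an SD of 206.6 against 735.7 in saline sham, and they lay inside the range of every other group. 9 of 10 saline HF-HI libraries were at or under the saline sham mean. The log2 change was -0.042 ± 0.032 (limma p = 0.203), with an interval of -7.12% to 1.64%. Under memantine it was -0.026 ± 0.032 (limma p = 0.425), and with both drug arms pooled it was -0.034 ± 0.023 (limma p = 0.146). Grin2b was the gene with the narrowest intervals of the family.

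Grin2c encodes GluN2C, whose receptors are weakly blocked by magnesium. Its count ran from 571.2 to 770.3 in saline sham (median 678.1), from 545.3 to 796.6 in memantine sham (median 709.3), from 527.3 to 810.6 in saline HF-HI (median 654.7) and from 578.4 to 800.4 in memantine HF-HI (median 699.8). The groups overlapped over most of their ranges. After HF-HI, 8 of 10 memantine libraries were above the saline mean, and the log2 difference was 0.10 ± 0.070 (limma p = 0.149), with an interval of -2.63% to 18.4%. Without saline HF-HI replicate 10, the library with the highest Grin2c count of its group, that difference was 0.14 (limma p = 0.0478). It was the only library whose removal took the difference under 0.05.

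Grin3a encodes GluN3A, a subunit most abundant in the young brain. Its count ran from 523.7 to 1177 in saline sham (median 847.2), from 405.9 to 892.4 in memantine sham (median 751.0), from 502.0 to 908.8 in saline HF-HI (median 709.3) and from 554.6 to 1145 in memantine HF-HI (median 780.3). The highest libraries belonged to saline sham and memantine HF-HI. The log2 change with HF-HI was -0.19 ± 0.14 under saline (limma p = 0.18) and 0.13 ± 0.14 under memantine (limma p = 0.351). The interaction, which is the change under memantine minus the change under saline, was 0.32 ± 0.19 (95% interval -0.075 to 0.71, limma p = 0.110, adjusted p = 0.999). Without saline sham replicate 1, the library with the lowest Grin3a count of its group, the interaction was 0.39 (limma p = 0.0450). It was the only library whose removal took the interaction under 0.05. Without saline sham replicate 6, the highest of that group, the change with HF-HI under saline was weaker, at -0.13 (limma p = 0.355).

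**Figure D3:**
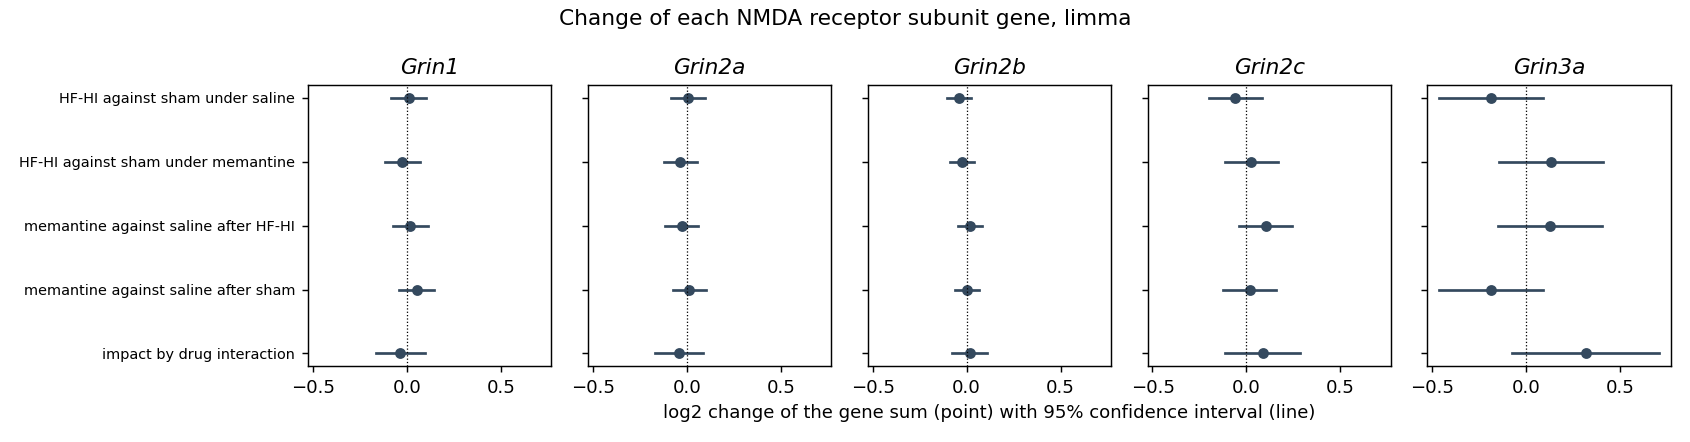
Log2 change of each gene sum (point) with its 95% confidence interval (line) for 4 comparisons of 2 groups and for the impact by drug interaction. All intervals include 0. Those of Grin1, Grin2a and Grin2b are narrow, and those of Grin3a reach 0.71.

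The spread between libraries of a group set these intervals. The within-group SD was 0.073 log2 units for Grin2b, 0.10 for Grin1, 0.10 for Grin2a, 0.16 for Grin2c and 0.31 for Grin3a. The median over all gene sums was 0.095. Grin3a was thus more variable than most, with 92.7% of gene sums showing a smaller SD, and Grin2b was less variable, with 24.2% showing a smaller one. Counting error accounts for 0.014 to 0.055 of these units, so libraries of a group differed by 2.85 to 6.04 times their counting error.

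The count of Grin2a over that of Grin2b was 0.502 ± 0.030 in saline sham, 0.505 ± 0.021 in memantine sham, 0.519 ± 0.027 in saline HF-HI and 0.503 ± 0.022 in memantine HF-HI (SD, n = 10 each). Over the 40 libraries this ratio stayed between 0.467 and 0.553. The count of Grin2c over that of Grin2b ranged more widely for its size, from 0.052 to 0.080. Per kilobase of coding sequence, Grin1 over the sum of the 3 Grin2 genes was 0.562 ± 0.044 in saline sham, 0.582 ± 0.034 in memantine sham, 0.576 ± 0.030 in saline HF-HI and 0.583 ± 0.038 in memantine HF-HI. These are descriptions with no test.

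The AMPA receptor genes, which encode the fast glutamate channels of the same synapses, are the most similar family, with 13 transcripts of 4 genes in the table. The summed count of Gria1 to Gria4 over that of the NMDA genes was 1.84 ± 0.088 in saline sham, 1.69 ± 0.12 in memantine sham, 1.82 ± 0.18 in saline HF-HI and 1.71 ± 0.19 in memantine HF-HI (SD, n = 10 each, no test). The ranges overlapped between all groups. The NMDA sum was 23296 ± 1293 in memantine sham, 22710 ± 679 in saline HF-HI and 22955 ± 1025 in memantine HF-HI. Gria2 encodes GluA2, which makes AMPA receptors impermeable to calcium. Its sum was 22115 ± 620 in saline sham, 19627 ± 2581 in memantine sham, 21609 ± 2604 in saline HF-HI and 19547 ± 3442 in memantine HF-HI. The medians were 22138, 20939, 22692 and 20948 in the same order, and the lowest libraries had 21006, 15610, 15206 and 14321. In every group but saline sham the mean thus lay well under the median. For memantine against saline the log2 difference of Gria2 was -0.17 ± 0.060 over both impact arms (limma p = 0.00706, adjusted p = 0.429) and -0.18 ± 0.084 after sham (limma p = 0.0352, adjusted p = 0.581). Of all gene sums, 8.85% and 7.92% passed an unadjusted p of 0.05 in these contrasts. Gria1 was 8212 ± 704 in saline HF-HI and 8976 ± 707 in saline sham, a log2 change of -0.13 ± 0.043 (limma p = 0.00479, adjusted p = 0.241). With both drug arms pooled it was -0.072 ± 0.030 (limma p = 0.0225, adjusted p = 0.372). In these contrasts 10.7% and 10.9% of all gene sums passed. Gria3 and Gria4 passed an unadjusted p of 0.05 in none of the 7 contrasts.

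The transcripts of Grin1 were then compared one by one on the deposited variance-stabilised values, which compress log2 changes at these counts. Of the 7 transcripts of the family, 1 passed an unadjusted limma p under 0.05 in one contrast, and 0 passed an adjusted p under 0.1. NM_001177657, the form without N1 and C1, was higher under memantine than under saline over both impact arms, by 0.13 ± 0.060 (SE) on the deposited scale (limma p = 0.0382, adjusted p = 0.592). As a log2 change of the count this was 0.30 ± 0.14. In that contrast 8.11% of all transcripts passed. Its count ran from 611.8 to 1918 in saline sham, from 978.6 to 2190 in memantine sham, from 637.1 to 1786 in saline HF-HI and from 810.8 to 2267 in memantine HF-HI. The lowest libraries were saline ones and the highest were memantine ones, with wide overlap between. The p rose above 0.05 when any 1 of 12 libraries was left out, with a highest value of 0.0708 without memantine sham replicate 6, and it was 0.0538 with the mean of the striatal genes in the fit.

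In the other 6 contrasts none of the 7 transcripts passed. The share of all transcripts that passed was 9.53% for HF-HI against sham under saline, 4.61% for HF-HI against sham under memantine, 3.91% for memantine against saline after HF-HI, 7.51% for memantine against saline after sham, 3.73% for the interaction and 9.66% for HF-HI against sham over both drug arms. NM_001177656, the form with N1, came nearest, with a mean count of 1921 ± 382 in memantine sham and 1496 ± 527 in saline sham (SD, n = 10 each). Its difference on the deposited scale was 0.19 ± 0.097 (limma p = 0.0536), and on log2 counts it was 0.42 ± 0.21 (limma p = 0.0473, adjusted p = 0.655). Of the memantine sham libraries, 8 of 10 were above the saline sham mean. NM_008169, the form with C1 and C2, was 2781 ± 586 in memantine sham and 3208 ± 840 in saline sham (limma p = 0.184).

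Because the Grin1 sum did not pass in these contrasts, the transcripts were also expressed as shares of it. NM_008169 took 49.8% of the sum over the 40 libraries, NM_001177656 28.9% and NM_001177657 21.3%. The share of NM_008169 was 55.2 ± 13.4% in saline sham, 46.0 ± 7.84% in memantine sham, 52.0 ± 12.6% in saline HF-HI and 46.1 ± 10.6% in memantine HF-HI (SD, n = 10 each). The share of NM_001177656, with N1, was 25.9 ± 9.07%, 31.9 ± 5.96%, 28.4 ± 9.12% and 29.4 ± 6.82% in the same order. That of NM_001177657 was 18.9 ± 6.71%, 22.1 ± 7.55%, 19.6 ± 5.29% and 24.5 ± 8.51%. In both memantine groups the form with C1 and C2 thus had a lower mean share than in both saline groups.

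None of the 12 comparisons of a share between 2 groups passed a two-sided permutation p of 0.05 with 100000 resamples. The smallest was that of NM_008169 after sham, where the difference of memantine from saline was -9.21 percentage points (permutation p = 0.0787, adjusted p = 0.556 over the 12), and 1 of 10 memantine sham libraries was above the saline sham mean. After HF-HI it was -5.82 points (permutation p = 0.276). HF-HI against sham moved this share by -3.24 points under saline (permutation p = 0.571) and by 0.15 points under memantine (permutation p = 0.973).

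A comparison over both impact arms, with drug labels permuted within each arm, was added after these values were seen. The share of NM_008169 was 46.1 ± 9.09% in the 20 memantine libraries and 53.6 ± 12.8% in the 20 saline libraries (SD). The difference was -7.52 percentage points (permutation p = 0.0408, adjusted p = 0.238 over 6 such comparisons). Of the memantine libraries, 3 of 20 were above the saline mean. Leaving out 1 library at a time gave differences of -8.70 to -6.40 points with p-values of 0.0155 to 0.0739.

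The saline mean rested on a set of libraries with a high share. Sorted over all 40 libraries, the largest gap between neighbouring shares of NM_008169 lay between 59.1% and 64.8%. Above it were 4 saline sham libraries, 3 saline HF-HI libraries, 1 memantine HF-HI library and 0 memantine sham libraries. The medians of the groups were closer together than their means, at 51.5% in saline sham, 46.7% in memantine sham, 45.5% in saline HF-HI and 46.5% in memantine HF-HI. Counting error on a share of this size is 0.651 percentage points, and the within-group SD was 11.3 points. For transcripts told apart by few bases, error in assigning reads adds to counting error and its size is not known from the table. Its part in the spread was not tested.

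**Figure D4:**
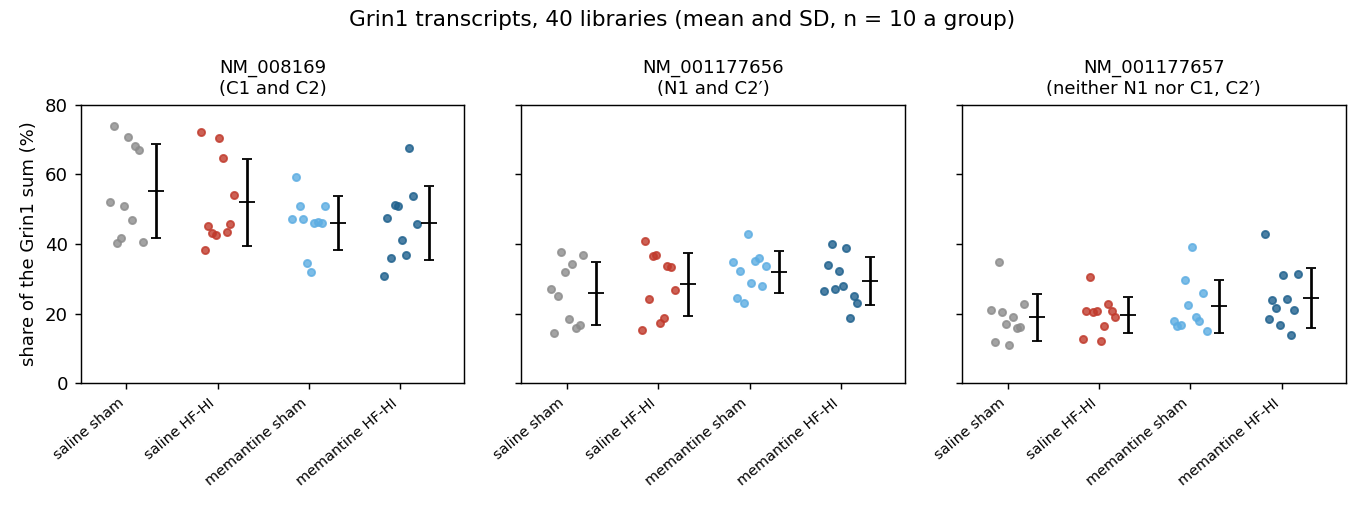
Share of each counted Grin1 transcript in the Grin1 sum, in percent, by group. Each point is a library, and the bar gives the mean and SD of 10 libraries. Of the 8 libraries with an NM_008169 share of 64.8% or more, 7 are saline libraries.

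The subunit genes were next compared with each other over the 40 libraries, with group means removed. What is left is variation between libraries of the same group, in which differences between mice and between dissections are not separated. Of 10 pairs, 6 had an adjusted permutation p under 0.05 for Pearson's r. The share of other pairs of gene sums that would pass was not computed, so whether this count is particular to the subunit genes was not tested. Grin2a and Grin2b varied together, with r = 0.71 (permutation p = 1e-05, the smallest that 100000 resamples can give, adjusted p = 0.0001) and Spearman's rho = 0.64 (permutation p = 2e-05, adjusted p = 0.0002). Leaving out the 2 libraries farthest from the median of Grin2a gave r = 0.65. Within the groups, r was 0.69 in saline sham, 0.81 in memantine sham, 0.54 in saline HF-HI and 0.78 in memantine HF-HI.

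Grin1 varied with Grin2a at r = 0.50 (permutation p = 0.00079, adjusted p = 0.00263) and rho = 0.47 (permutation p = 0.00226, adjusted p = 0.00753), with r = 0.51 without the 2 farthest libraries. It varied with Grin2b at r = 0.41 (permutation p = 0.00987, adjusted p = 0.0164) and rho = 0.35 (permutation p = 0.0293, adjusted p = 0.0489), with r = 0.41 without the 2 farthest libraries. Within saline sham these values were lower, at 0.22 and 0.16, and within the other groups they were 0.44 to 0.65. Grin2b and Grin2c gave r = 0.44 (permutation p = 0.00486, adjusted p = 0.0121) and rho = 0.43 (permutation p = 0.00635, adjusted p = 0.0159), but r fell to 0.29 without the 2 farthest libraries and ran from 0.16 to 0.73 within groups, so it rested in part on those libraries.

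Grin3a ran against Grin2a and Grin2b. With Grin2a it gave r = -0.54 (permutation p = 0.00034, adjusted p = 0.0017) and rho = -0.53 (permutation p = 0.00049, adjusted p = 0.00245), and r = -0.41 without the 2 farthest libraries. It was negative within each group, at -0.75 in saline sham, -0.47 in memantine sham, -0.49 in saline HF-HI and -0.41 in memantine HF-HI. With Grin2b it gave r = -0.41 (permutation p = 0.00905, adjusted p = 0.0164) and rho = -0.41 (permutation p = 0.00874, adjusted p = 0.0175), and r = -0.41 without the 2 farthest libraries. The remaining 4 pairs, which were Grin1 with Grin2c, Grin1 with Grin3a, Grin2a with Grin2c and Grin2c with Grin3a (r = 0.013), had r between -0.17 and 0.32 and did not pass.

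**Figure D5:**
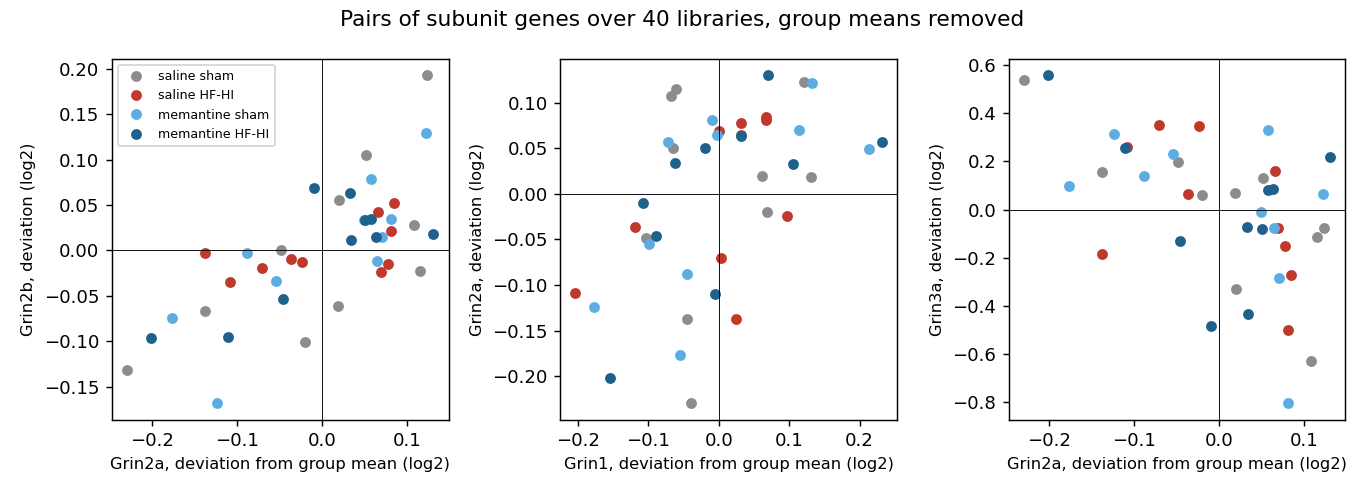
Deviation of subunit genes from their group means on the log2 scale for 3 pairs of genes. Each point is 1 of 40 libraries, coloured by group. Grin2a rises with Grin2b (r = 0.71) and with Grin1 (r = 0.50), and Grin3a falls as Grin2a rises (r = -0.54).

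Marker genes of other regions and cells moved with subunit genes over the same libraries. Of the listed markers, 8 of 11 interneuron, 4 of 7 thalamic, 8 of 9 astrocyte and 5 of 10 microglial genes had a row. How many other gene sums relate to these marker means as closely was not computed. Among 55 relations of the 5 genes with 11 marker lists, Grin2a had r = -0.55 with the mean of 8 interneuron genes (permutation p = 0.00022, adjusted p = 0.0121; rho = -0.48, permutation p = 0.00194, adjusted p = 0.0425) and r = -0.51 without the 2 farthest libraries. With 4 thalamic genes it had r = -0.50 (permutation p = 0.00106, adjusted p = 0.0291; rho = -0.48, permutation p = 0.00183, adjusted p = 0.0425) and r = -0.39 without the 2 farthest. With 8 astrocyte genes it had r = -0.47 (permutation p = 0.0023, adjusted p = 0.0422; rho = -0.46, permutation p = 0.00325, adjusted p = 0.0428) and r = -0.44 without the 2 farthest. No other of the 55 relations passed an adjusted p of 0.05 for r, and 2 more passed for rho. These were Grin1 with the thalamic genes (rho = -0.45, permutation p = 0.00389, adjusted p = 0.0428; r = -0.36, permutation p = 0.0252, adjusted p = 0.139) and Grin2c with 5 microglial genes (rho = 0.47, permutation p = 0.00232, adjusted p = 0.0425; r = 0.42, permutation p = 0.00662, adjusted p = 0.091). Without the 2 farthest libraries their r was -0.39 and 0.39.

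The pairs of subunit genes were computed again with the thalamic mean also removed, a step added after these values were seen. Of the 10 pairs 7 then passed for r, again with no share over other pairs of gene sums. The value was 0.72 for Grin2a with Grin2b, -0.58 for Grin2a with Grin3a and -0.40 for Grin2b with Grin3a. It rose to 0.54 for Grin2b with Grin2c and to 0.49 for Grin1 with Grin2c (permutation adjusted p = 0.00277), the pair that had not passed before. It fell to 0.40 for Grin1 with Grin2a (permutation adjusted p = 0.0183) and to 0.37 for Grin1 with Grin2b (permutation adjusted p = 0.0275), and neither of these passed for rho any longer (permutation adjusted p = 0.0788 and 0.0714). The part of the interneuron, astrocyte and microglial genes was not tested.

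The genes most like each subunit gene were ranked by Pearson's r over the 40 libraries with group means removed, as a description. Those nearest to Grin1 were Ski (r = 0.90), Irgq (0.89), Celsr2 (0.89), Nrgn (0.89) and Bsn (0.88), where Nrgn encodes the calmodulin-binding neurogranin and Bsn the active-zone protein bassoon. Among those nearest to Grin2a were Enc1 (r = 0.90), Kalrn (0.85), Phf24 (0.85) and Stard8 (0.83), where Kalrn encodes kalirin, a protein of dendritic spines. Those nearest to Grin2b were Csmd2 (r = 0.78), Olfm1 (0.74), Cx3cl1 (0.73), Prex1 (0.72) and Pip4k2b (0.72). Grin2c was most like Pex6 (r = 0.81), Lrrn2 (0.74), Tln2 (0.73), Dtx1 (0.73) and Psmd3 (0.72). Grin3a had weaker neighbours, Maoa (r = 0.56), Map3k4 (0.55), Rcn2 (0.54), B3galt5 (0.52) and Cplane1 (0.52). The 5 lists had no gene in common with each other.

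Genes that work with the receptor were taken from a list of 95 in 6 roles, of which 82 had a row. The list was chosen with earlier results of these data known, so its shares of calls are descriptions and not independent evidence. Under saline, 14 of the 82 passed an unadjusted limma p under 0.05 for HF-HI against sham, 3 higher and 11 lower, which is 17.1% against 10.7% of all gene sums, and 0 passed an adjusted p under 0.1, against 0.358% of all gene sums. By role, 6 of 21 kinases and phosphatases bound to the receptor passed, as did 3 of 18 scaffold and membrane anchor genes, 2 of 8 genes of glutamate release, clearance and recycling, 2 of 18 genes of calcium and Ras signalling, 1 of 12 receptor traffic genes and 0 of 5 genes of co-agonist supply. The median log2 change of the 82 was -0.015, and that of all gene sums was -1.4e-05.

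The 5 partners with the smallest p-values of that comparison are given here. A list of 82 partners holds small p-values more readily than 5 subunit genes do, so these values do not set partners apart from subunits. Actn1, which encodes an α-actinin, had 1730 ± 119 counts in saline HF-HI and 1948 ± 177 in saline sham (SD, n = 10 each), a log2 change of -0.17 ± 0.050 (limma p = 0.00162), with 0 of 10 HF-HI libraries above the sham mean. Camk2g, a CaMKII gene, was higher, with 5256 ± 254 against 4862 ± 287 (log2 change 0.11 ± 0.036, limma p = 0.00293). Nos1, the neuronal nitric oxide synthase tethered to the receptor through PSD-95, was lower, with 942.8 ± 121.5 against 1159 ± 243 (log2 change -0.28 ± 0.091, limma p = 0.00379). Dapk1, a death-associated kinase that binds GluN2B, was lower by 0.10 ± 0.034 on the log2 scale (limma p = 0.0042). Ptpn5, which encodes the phosphatase STEP and is rich in striatum, was lower by 0.13 ± 0.050 (limma p = 0.0119). The adjusted p was between 0.186 and 0.316 for these 5 genes, and the striatal sums given above were lower in saline HF-HI by their median, at 34694 against 40777 in saline sham. The sum of 8 interneuron genes was lower by its median as well, at 25793 (25330 to 28983) in saline HF-HI against 27625.5 (25424 to 30783) in saline sham, and Nos1 is known to be rich in a class of interneurons. The part of the striatal and interneuron genes in these partner changes was not tested.

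Under memantine, 4 of 82 partners passed for HF-HI against sham, all lower. They were Dlgap2, a scaffold gene, at -0.25 ± 0.10 on the log2 scale (limma p = 0.0206), Slc1a1, a neuronal glutamate transporter gene, at -0.055 ± 0.024 (limma p = 0.0257), Ptpn5 at -0.10 ± 0.050 (limma p = 0.0421) and Actn1 at -0.10 ± 0.050 (limma p = 0.0434). Each had an adjusted p of 0.958, and the share of 4.88% is near the 4.38% of all gene sums. Memantine against saline gave 0 of 82 after HF-HI, against 3.66% of all gene sums. It gave 3 after sham, or 3.66% against 7.92% of all gene sums, which were Camk2g (0.099 ± 0.036, limma p = 0.0085), Ppp1ca (-0.088 ± 0.034, limma p = 0.0147) and Apba1 (0.11 ± 0.048, limma p = 0.0358), each with an adjusted p between 0.5 and 0.581. Camk2g, for which 10 of 10 memantine sham libraries were above the saline sham mean, was also the one partner that passed for the interaction (-0.13 ± 0.050, limma p = 0.0154, adjusted p = 0.999), where 1 of 82 is 1.22% against 3.59% of all gene sums. Both of these contrasts share the saline sham libraries with the HF-HI comparison under saline.

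With both drug arms pooled, 11 of 82 partners passed for HF-HI against sham, 1 higher and 10 lower, which is 13.4% against 10.9% of all gene sums. Actn1 was the one with an adjusted p under 0.1 (log2 change -0.14 ± 0.035, limma p = 0.000403, adjusted p = 0.085), and 1 of 82 is near the 0.885% of all gene sums under that value. The next were Dlgap2 (-0.25 ± 0.073, limma p = 0.00156), Ptpn5 (-0.12 ± 0.035, limma p = 0.0018), Slc1a1 (-0.052 ± 0.017, limma p = 0.00371) and Nos1 (-0.18 ± 0.064, limma p = 0.00797). Memantine against saline over both impact arms gave 2 of 82, Shank3 (0.12 ± 0.054, limma p = 0.0321) and Apba1 (0.072 ± 0.034, limma p = 0.0415), against 8.85% of all gene sums. In the same contrasts the 5 subunit genes had log2 changes between -0.034 and -0.0073 for HF-HI and between -0.032 and 0.060 for memantine, none of which passed.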

How the data were processed

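Stranded, ribosomal RNA-depleted libraries of mouse cortex were sequenced in pairs. Per the study's methods the authors aligned reads to mm10 with STAR and counted them per transcript with eXpress (the table's rows are RefSeq identifiers), whereas the submitters' processing notes name HISAT2, StringTie and mm10. The deposited values are log2-like: the authors scaled counts with DESeq2 and stabilised their variance with its transformation. The transformation was inverted here from its floor (10.36) to normalised counts, and 100% of values under 5000 were whole reads within 0.05. Transcripts were summed by RefSeq symbol (5874 gene sums from 6831 transcripts). The gene sums include 24 transcripts with no symbol, each kept as its own row.

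The receptor genes and the lists were chosen with earlier results of these data known. limma 3.58.1 (R 4.3.3, eBayes with trend) was fitted on log2(sum + 1) of all gene sums and on all deposited transcript values, with a term per group; 7 contrasts were two-sided, at an unadjusted p of 0.05, the criterion of the study, and a Benjamini-Hochberg p of 0.1. It was tested on simulated data. Fold changes of sums are on the log2(sum + 1) scale. Named genes were all subunit genes, the 5 listed partners with the smallest p under 0.05 in each contrast and the 5 genes most like each subunit gene, of which 1 is not reported here. Per the study's methods mice shared cages and libraries were sequenced in pools, but nothing gives the cage, pool or run of each library. None of these is in the fits, so p-values measure the spread between these samples. Alternatives covered scale, normalisation, a count minimum of 1000, a striatal covariate, a replicate block and leaving out each library.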

Additional observations from a re-analysis of the deposited data

Results flagged for a closer look

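The highest saline sham library for NM_001177657, replicate 3, with 1918 normalised counts, stood apart from the other 9 libraries of its group: its gap to the next was 0.496 of the whole range, above Dixon's 95% critical ratio for 10 samples. It was the 1 value flagged among 32 groups checked for the gene sums and the Grin1 transcripts, and chance flags about 1 in 20.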

How the results depend on the processing

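For HF-HI against sham in either drug arm and over both arms, the count of gene sums and of transcripts under an unadjusted limma p of 0.05 was 0 under every alternative run. Leaving out 1 library at a time gave counts of 0 to 1 gene sums for memantine against saline after HF-HI (Grin2c, without saline HF-HI replicate 10) and for the interaction (Grin3a, without saline sham replicate 1). It gave counts of 0 to 1 transcripts for the drug after HF-HI, the drug after sham, the interaction and the drug over both impact arms. For the drug after sham the transcript was NM_001177656, and 1 also passed on log2 counts and with only the groups compared fitted. For the drug over both impact arms, 0 passed with the striatal mean as a covariate, and the cause was not tested. The Grin2a change with HF-HI under saline turned to -0.0087 with that covariate. Without 1 library each, the changes nearest to 0 crossed it, running from -0.0017 to 0.032 for Grin1 and from -0.017 to 0.023 for Grin2a with HF-HI under saline, and from -0.0070 to 0.036 for Grin1 with memantine after HF-HI.

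Libraries with the same replicate number shared only the number: their deviations correlated between -0.15 and 0.28, and 4 of 40 correlated best with their own number across the 4 comparisons. With the replicate block, 0 gene sums and 1 transcript passed, the latter for the drug over both impact arms (limma p = 0.0487), and 0 of 12 isoform shares passed, so no call changed. No scaling moved the median of all gene sums by more than 0.0048 log2 units.

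The lowest mean normalised count of a transcript in the table was 549.2, and the filter that left these rows is not stated. Grin2d and the other RefSeq transcripts of Grin1 had no row, for a reason that is not known, and were not analysed here. A count minimum of 1000 left out Grin2c and Grin3a, which have no value under it. With 10 libraries a group, the 95% intervals of Grin1, Grin2a and Grin2b in the comparisons of 2 groups lay between -8.12% and 10.6%, and those of Grin3a between -27.7% and 32.5%.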
